A study of Mus musculus with 10 samples.

Results

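The 32 genes described here encode enzymes of the lysosome, their protein cofactors, proteins of the lysosomal membrane, and the transcription factor TFEB. They were chosen by symbol, with no measured value in the rule, and all 32 were found among the 24411 gene rows of the count files. By role they are 7 membrane proteins (Lamp1, Lamp2, Laptm5, Cd68, Npc1, Cln3 and Mcoln1), 12 glycosidases (Hexa, Gaa, Galc, Gusb, Glb1, Naglu, Idua, Neu1, Man2b1, Manba, Fuca1 and Gla) and 4 sulfatases (Sgsh, Ids, Arsa and Arsb). The others are 5 lipid hydrolases, thioesterases and peptidases (Asah1, Smpd1, Lipa, Ppt1 and Tpp1), 3 soluble cofactors and binding proteins (Grn, Psap and Npc2), and Tfeb.

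The study asked how EPZ-6438, a selective inhibitor of the histone methyltransferase EZH2, bears on the activation of neonatal microglia, the resident macrophages of the brain. RNA was sequenced from primary microglia without LPS (n = 3) and with LPS (n = 3), and from BV2 cells, an immortalised mouse microglial line, without LPS (n = 2) and with LPS (n = 2). LPS is a bacterial cell wall product that activates macrophages. Primary cells came from ICR mice aged 3 days. The brains of 12 mice were pooled, mixed glia were cultured, and microglia were shaken off, with more than 92% of the cells positive for CD11b. The labels give no mouse strain for BV2 cells, which were grown in another medium. All 4 groups received EPZ-6438 at 10 uM, and the LPS groups also received LPS at 10 ng/ml. The treatment lasted 4 h. Since every library used here carries the inhibitor, its own effect is not measured. Nothing in the labels says that replicates were separate cultures, so the p-values below measure the spread between these libraries, which may be technical.

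Lysosomes are acidic organelles in which hydrolases take apart proteins, glycans and lipids, and microglia use them to clear engulfed debris, myelin and dead cells. Loss of a single hydrolase lets its substrate build up and causes a storage disease, often of the brain. Many lysosomal genes carry a palindromic E-box, the CLEAR element, at which TFEB and its relatives TFE3, MITF and TFEC (the MiT/TFE family) act.

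The promoters of 5 members are shown because they hold the core of that element and because these genes went different ways after LPS: Sgsh, Naglu and Mcoln1 fell in primary microglia, Cln3 rose, and Lamp1 was not called. Capitals mark each copy of the core, CACGTG, which reads the same on both strands. The letters are from RefSeq on GRCm38.p6, 5′ to 3′ on the gene's strand. They come from chr11:119355514-119355564 (minus strand, Sgsh), chr11:101069996-101070046 (plus strand, Naglu), chr8:3500423-3500499 (plus strand, Mcoln1), chr7:126583332-126583410 (minus strand, Cln3) and chr8:13159075-13159160 (plus strand, Lamp1). All lie before the RefSeq start used, while the GENCODE gene starts of Sgsh, Naglu and Mcoln1 fall inside the stretch. The stretch of Cln3 belongs to 1 of its 2 RefSeq starts and lies inside the GENCODE gene, downstream of its start.
Sgsh: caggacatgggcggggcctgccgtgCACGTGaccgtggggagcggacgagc
Naglu: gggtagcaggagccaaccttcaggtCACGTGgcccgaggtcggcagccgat
Mcoln1: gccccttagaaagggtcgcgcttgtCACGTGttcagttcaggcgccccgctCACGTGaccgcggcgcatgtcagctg
Cln3: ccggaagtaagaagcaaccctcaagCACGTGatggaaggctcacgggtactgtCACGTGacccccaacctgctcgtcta
Lamp1: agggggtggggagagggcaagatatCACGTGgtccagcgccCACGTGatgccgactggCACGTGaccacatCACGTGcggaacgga

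Promoter windows of 300 bases (250 before and 50 after the start) were found for 30 of the 32 members. CACGTG was in the windows of 9 members (30.0%), namely Arsa, Cln3, Gaa, Gla, Glb1, Lamp1, Mcoln1, Naglu and Sgsh. Over all mouse genes with a window of the same length it was in 2187 of 27025 (8.09%). Counted by window it was in 9 of the members' 34 and in 2349 of 32851 in all (7.15%). Lamp1 held 4 copies between bases -61 and -10 from its start, Cln3, Gla and Mcoln1 held a pair each, and Sgsh held 1 copy at bases -29 to -24. The longer palindrome TCACGTGA, which contains the core, was in the windows of Cln3, Gla and Mcoln1. That is 10% of the members with a window, against 1.12% of all genes with a window. A match describes the letters and does not show that a factor binds there.

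Each library held between 2750988 and 3684012 gene counts, of which the members together took 16491 to 30858. Rn45s, the ribosomal RNA precursor, held 40.9% to 51.7% of gene counts in primary microglia without LPS and 15.7% to 43.7% with LPS, against 27.0% to 30.1% in the BV2 libraries. The first replicate of the primary group with LPS was at the top of its range and differed most from its fellow replicates (chi-square over degrees of freedom 5.86 and 5.63, against 2.40 between the other pair). Of 16 microglial markers none was at 0 in any group, and their summed level was 3040 to 3540 CPM (counts scaled to a common library size) in primary microglia and 2630 to 2770 CPM in BV2 cells without LPS. The homeostatic microglial genes Tmem119 and P2ry12 were low in primary microglia, at 2.51 ± 0.287 and 5.68 ± 1.44 CPM. Astrocyte markers summed to 988 to 1630 CPM in primary microglia and to 990 to 1670 CPM with LPS. In BV2 cells they summed to 38.0 to 43.0 CPM, with 12 of 14 at 0 without LPS and 13 of 14 with LPS. Fibroblast markers summed to 343 to 680 CPM in primary microglia and 215 to 527 CPM with LPS, and all 10 were at 0 in BV2 cells. The part of these other cells in the results below was not tested. The level of a gene relative to its mean over the 10 libraries also moved with transcript length. Per doubling of length, the slope was 0.28 to 0.36 log2 units in primary libraries without LPS and 0.08 to 0.27 with LPS. It was -0.39 to -0.32 in BV2 libraries. These slopes compare the libraries with their shared mean and do not give the trend of the level itself with length.

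**Figure D1:**
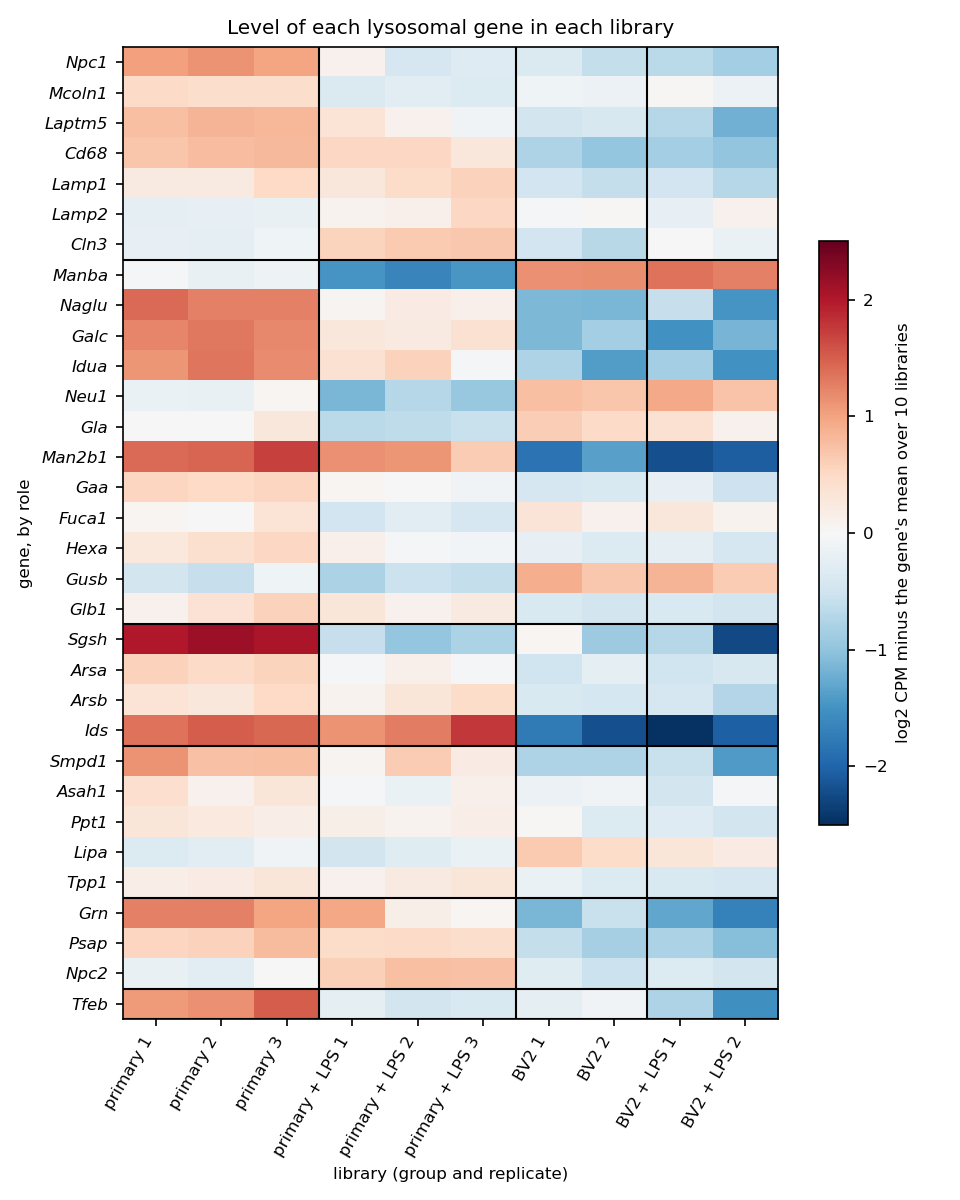
Level of the 32 genes (rows, by role) in the 10 libraries (columns, by group), as log2 CPM minus the gene's mean over the libraries, with red above and blue below that mean. Sgsh, Npc1, Naglu, Galc and Tfeb are highest in the 3 primary libraries without LPS, whereas Cln3 and Npc2 are highest in the 3 primary libraries with LPS and Manba, Neu1 and Gusb in the BV2 libraries.

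In primary microglia most of the called members fell with LPS. Of the 32 members, 19 fell, 3 rose and 10 were not called at an adjusted p under 0.05 (edgeR quasi-likelihood test, Benjamini-Hochberg adjustment over 10664 genes, n = 3 per group). The background shares over all tested genes were 17.8% lower, 21.4% higher and 39.2% in either direction. The median log2 fold change was -0.53 over the members and -0.03 over all genes. The groups did not overlap for 21 members that were lower and 3 that were higher, where 22.4% and 26.6% of all genes did so (49.0% together). In bulk RNA, fewer cells of a type and less RNA per cell cannot be told apart. The Rn45s share moved with LPS, and with its log2 value as a covariate 17 members fell and 2 rose.

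The largest fall was that of Sgsh, the sulfatase that removes N-linked sulfate from heparan sulfate. Its level was 37.5, 41.3 and 38.7 CPM without LPS and 6.27, 4.78 and 5.39 CPM with LPS. All 3 libraries with LPS lay far below all 3 without, on 15 to 19 counts against 100 to 110. Sgsh fell by 2.85 ± 0.21 (SE) on the log2 scale, or 7.21-fold (adjusted p = 1.26e-09). Its gene overlaps Card14 on the other strand, and other-strand reads were at most 12.5% of its reads in any library. The other sulfatases moved less. Arsa, which acts on the myelin lipid sulfatide, was at 34.5, 32.3 and 34.1 CPM and then at 22.3, 25.2 and 22.7 CPM, with no overlap. It fell by 0.53 ± 0.16 on the log2 scale (adjusted p = 0.0124), a call lost without the first replicate of the group without LPS (adjusted p = 0.0531) or the third with LPS (adjusted p = 0.0504), and by DESeq2 (adjusted p = 0.0653). Ids, the sulfatase that acts before Idua in heparan sulfate breakdown, was at 65.7 ± 3.45 (SD) and 64.6 ± 15.8 CPM (log2 fold change -0.03, 95% interval -0.35 to 0.30). Arsb, which acts on dermatan and chondroitin sulfate, was at 190 ± 15.7 and 180 ± 23.9 CPM (-0.09, -0.35 to 0.17).

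Glycosidases cut single sugars from glycans. Of 12 tested, 10 fell and 0 rose, and the median log2 fold change was -0.66. Gusb was at an unadjusted p of 0.0387 and Glb1 at 0.302. Manba, the beta-mannosidase of glycoprotein breakdown, had 42.0, 37.6 and 39.1 CPM without LPS and 15.3, 13.7 and 15.6 CPM with LPS. Its groups were wide apart, and it fell by 1.42 ± 0.17 on the log2 scale (adjusted p = 1.43e-06). Naglu, the N-acetylglucosaminidase of heparan sulfate breakdown, went from 103, 92.4 and 91.8 CPM to 40.3, 44.3 and 42.2 CPM. That is a fall by 1.19 ± 0.13 (adjusted p = 3.05e-07) and every LPS library lay far below every library without.

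Galc, which degrades the myelin lipid galactosylceramide, was at 102, 110 and 101 CPM without LPS and at 53.7, 51.4 and 57.6 CPM with LPS. The libraries within each group were close together and the groups did not overlap. Galc fell by 0.95 ± 0.12 on the log2 scale (adjusted p = 3.41e-06). Idua, the iduronidase of heparan and dermatan sulfate breakdown, was the least abundant member per transcript length without LPS. It had 20.6, 24.5 and 21.8 CPM without LPS and 12.5, 14.4 and 9.36 CPM with LPS, with no overlap, and fell by 0.90 ± 0.22 (adjusted p = 0.00249). Idua shares exons with Slc26a1 and Dgkq on the other strand, and other-strand reads reached 22.0% of its reads in the first LPS replicate.

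Neu1, the sialidase that removes terminal sialic acid, was at 65.2, 64.6 and 76.0 CPM and then at 33.3, 45.0 and 38.0 CPM. Every LPS library was lower than every library without LPS, and Neu1 fell by 0.83 ± 0.15 on the log2 scale (adjusted p = 1.30e-04). Gla, the alpha-galactosidase of globoside breakdown, went from 135, 136 and 164 CPM to 83.8, 86.8 and 90.7 CPM, a fall by 0.75 ± 0.12 (adjusted p = 6.00e-05). Its groups did not overlap either. Man2b1 (alpha-mannosidase), Gaa (the glycogen-degrading alpha-glucosidase), Fuca1 (alpha-fucosidase) and Hexa (a subunit of beta-hexosaminidase) fell by 0.57, 0.55, 0.53 and 0.41 in the same order, with adjusted p between 0.00124 and 0.00800. The Hexa call was lost with the Rn45s share as a covariate (adjusted p = 0.0824). Gusb, the beta-glucuronidase, was at 273, 251 and 350 CPM and then at 217, 259 and 248 CPM, with overlapping groups (-0.29 ± 0.13, adjusted p = 0.0865). With the Rn45s covariate Gusb was called (-0.52, adjusted p = 0.00145), and likewise with the length trend of each library removed (-0.38, adjusted p = 0.0119). Glb1, the beta-galactosidase, was at 43.1 ± 7.01 and 38.9 ± 2.75 CPM (-0.16, 95% interval -0.49 to 0.16), and shares exons with Tmppe on its own strand, so reads of the pair may be mixed.

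**Figure D2:**
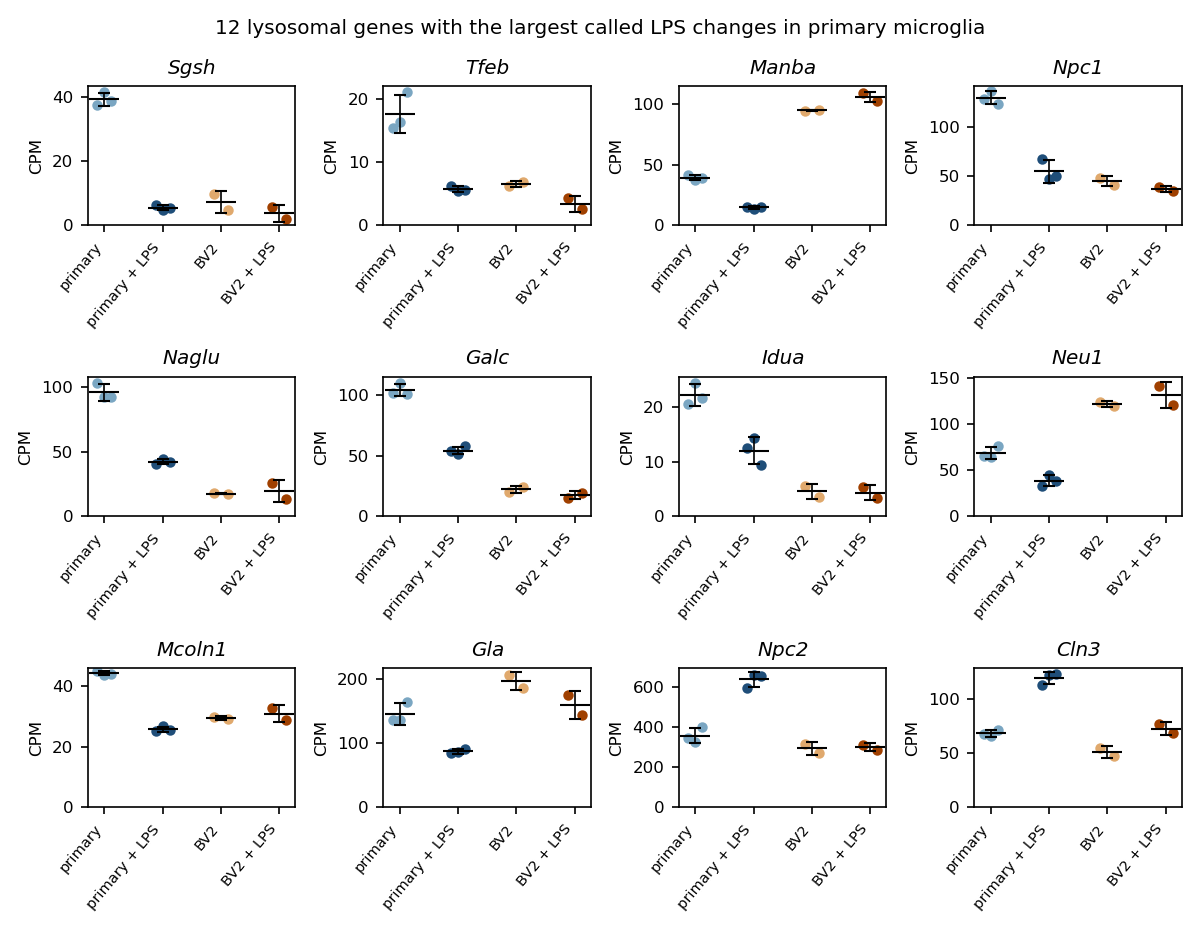
CPM in every library (points) with the mean (horizontal line) and SD (bars) of each group, for the 12 members with the largest called LPS changes in primary microglia; each panel has its own linear axis from 0. In primary microglia (blue) 10 of these genes are lower with LPS and 2, Npc2 and Cln3, are higher, with no overlap in any panel, while the BV2 groups (orange) lie closer together.

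Membrane proteins split in direction: 4 of 7 fell, 2 rose and Lamp1 was not called. Npc1, which exports cholesterol through the lysosomal membrane, was at 129, 137 and 124 CPM without LPS and at 68.2, 46.9 and 50.2 CPM with LPS. The first LPS replicate was the highest of its group and still well below the others, and Npc1 fell by 1.26 ± 0.14 on the log2 scale (adjusted p = 6.21e-07). Mcoln1, the calcium channel TRPML1, had 45.0, 43.7 and 44.0 CPM and then 25.1, 26.8 and 25.5 CPM. With replicates this tight, the fall by 0.79 ± 0.15 was clear of the spread (adjusted p = 2.53e-04). Laptm5, a membrane protein of haematopoietic cells, went from 299, 320 and 318 CPM to 226, 191 and 167 CPM. It fell by 0.70 ± 0.12 (adjusted p = 1.23e-04), without overlap.

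Cd68, the heavily glycosylated membrane protein used as a macrophage stain, was at 372, 390 and 402 CPM and at 329, 329 and 281 CPM with LPS. The groups did not overlap, but the fall by 0.32 ± 0.11 (adjusted p = 0.0235) was lost on leaving out any replicate without LPS (adjusted p = 0.0547, 0.0754 and 0.0631) or the third LPS replicate (adjusted p = 0.13), and with the Rn45s covariate (adjusted p = 0.139). Cln3, the membrane protein lost in juvenile Batten disease, rose from 67.4, 66.2 and 71.8 CPM to 113, 122 and 123 CPM. All LPS libraries were above the rest, with a log2 fold change of 0.79 ± 0.12 (adjusted p = 2.30e-05). Lamp2, a structural glycoprotein that also serves as receptor in chaperone-mediated autophagy, rose from 315, 325 and 327 CPM to 397, 410 and 536 CPM. The third LPS replicate was the highest, and the change was 0.46 ± 0.12 (adjusted p = 0.00495). With the Rn45s covariate it was 0.28 (adjusted p = 0.104). Lamp1, its abundant partner, was at 995, 996 and 1200 CPM and at 1030, 1160 and 1260 CPM, with overlapping groups (0.10, 95% interval -0.13 to 0.34).

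Of the 5 lipid hydrolases, thioesterases and peptidases, 2 fell and 0 rose. Smpd1, the acid sphingomyelinase, went from 44.2, 33.9 and 34.1 CPM to 21.2, 31.6 and 23.5 CPM. The groups came close but did not overlap, and the fall by 0.56 ± 0.18 (adjusted p = 0.0189) was lost without the first replicate without LPS (adjusted p = 0.14) or the third with LPS (adjusted p = 0.0897), and by DESeq2 (adjusted p = 0.0609). Asah1, the acid ceramidase, was at 161, 131 and 148 CPM and at 117, 108 and 132 CPM. Its groups overlapped and its call was marginal (fell by 0.32 ± 0.12, adjusted p = 0.0494), with adjusted p of 0.102 to 0.232 on leaving out the first or the third replicate without LPS or the second with LPS, and of 0.122 by DESeq2. Lipa, which frees cholesterol from its esters, was at 303 ± 28.3 and 287 ± 30.6 CPM (-0.09, 95% interval -0.33 to 0.16). Ppt1, a depalmitoylating thioesterase, was at 69.6 ± 2.91 and 64.6 ± 1.79 CPM (-0.12, -0.38 to 0.14). The peptidase gene Tpp1 was at 291 ± 15.3 and 289 ± 19.8 CPM (-0.02, -0.24 to 0.21).

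Npc2, the soluble protein that hands cholesterol to NPC1, went the opposite way to Npc1. It rose from 345, 328 and 399 CPM to 596, 662 and 655 CPM. Every LPS library was far above every library without, with a log2 fold change of 0.82 ± 0.11 (adjusted p = 6.19e-06), or 1.77-fold. Psap, the precursor of the saposins that present lipids to several of the hydrolases above, was the most abundant member and took 41.0% of the members' summed CPM without LPS and 39.9% with LPS. Its levels were 3640, 3750 and 4350 CPM and then 3440, 3500 and 3390 CPM, without overlap, and it was not called (-0.20 ± 0.11, adjusted p = 0.153). It was called with the length trend removed (-0.29, adjusted p = 0.0161).

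Grn, which encodes progranulin, a secreted and lysosomal glycoprotein, depended on a single library. It was at 229, 228 and 188 CPM without LPS and at 186, 106 and 98.4 CPM with LPS. The first LPS replicate stayed next to the group without LPS, and the other pair lay far lower. Grn was not called (-0.74 ± 0.25, adjusted p = 0.0501), but without that replicate it was (-1.08, adjusted p = 1.15e-16), and DESeq2 also called it (-0.73, adjusted p = 0.00236). It was called as well with no low-count filter (adjusted p = 6.64e-07), with unstranded counts (adjusted p = 0.0473) and in the fit of all 10 libraries (adjusted p = 0.0442). With the replicate number as a block the adjusted p was 2.45e-04.

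Tfeb itself was at 15.4, 16.4 and 21.1 CPM without LPS and at 6.27, 5.42 and 5.67 CPM with LPS. The LPS libraries held 16 to 20 counts each and lay well below the others, at 40 to 60 counts. Tfeb fell by 1.62 ± 0.25 on the log2 scale, or 3.08-fold (adjusted p = 2.97e-05). Other-strand reads were at most 10.5% of its reads in any library.

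**Figure D3:**
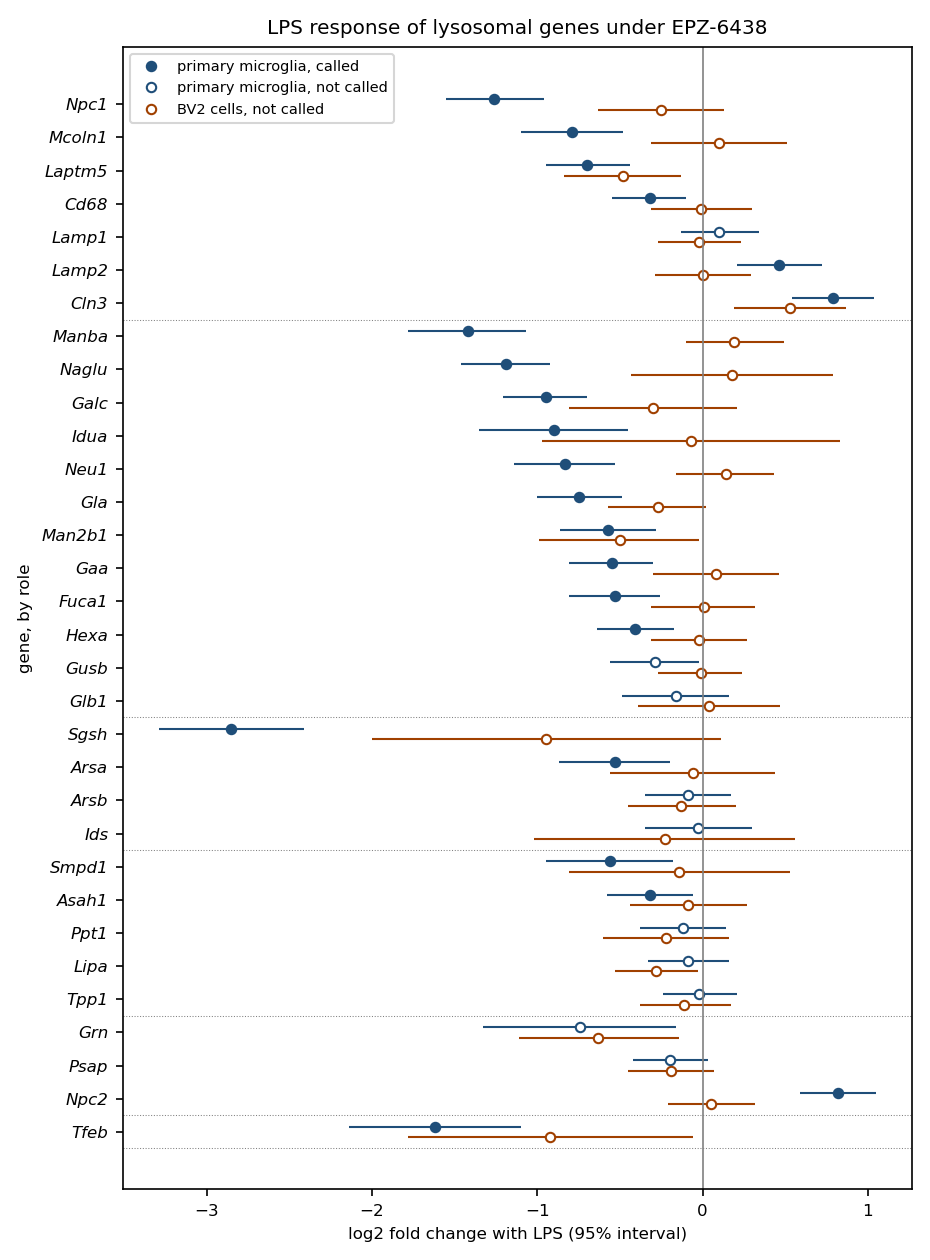
Log2 fold change with LPS (x axis) and its 95% interval (bars) for each member, ordered by role and then by the change in primary microglia; blue is primary microglia (n = 3 per group), orange BV2 cells (n = 2 per group), and filled points are called. In primary microglia 19 filled points lie left of 0 and 3 right of it, and no BV2 point is filled.

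Grouped by the substrate they handle, the members and their neighbours in each pathway moved unevenly in primary microglia. The grouping was made after the values were seen, and 17.8% of all tested genes fell and 21.4% rose. Of 6 genes of heparan sulfate degradation (Ids, Idua, Sgsh, Naglu and Gusb, with Hgsnat outside the 32), 3 fell and 0 rose. Hgsnat, a membrane acetyltransferase, was at 0.00 ± 0.16 (adjusted p = 0.994). Of 9 genes of sphingolipid degradation 7 fell, and of 6 that strip sugars from glycoproteins 5 fell (median log2 fold changes -0.53 and -0.55). Cholesterol release and export held 1 fall (Npc1), 1 rise (Npc2) and Lipa, which was not called. Of the 4 members linked to neuronal ceroid lipofuscinosis (Ppt1, Tpp1, Cln3 and Grn), only Cln3 was called.

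Per kilobase of transcript, the order of the levels in primary microglia without LPS began with Psap (1470 CPM per kb), Lamp1 (477) and Cd68 (316). Hexa (124), Laptm5 (120), Gusb (109), Npc2 (108) and Lipa (102) followed. The replicates of the leading 3 did not overlap with one another or with the rest, while from Hexa to Lipa each gene overlapped with its neighbour. It ended with Sgsh (8.99), Tfeb (7.52) and Idua (6.31). With LPS, Npc2 (193) and Lamp2 (124) came directly after Psap, Lamp1 and Cd68, and Sgsh (1.26) was last. The members' summed level was 9530 ± 724 CPM without LPS and 8620 ± 169 CPM with LPS. Without Psap it was 5620 ± 341 and 5180 ± 185 CPM. The replicate spread was small, with a median coefficient of variation of 8.38% without LPS and 8.54% with LPS, and was highest for Grn with LPS (37.1%).

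In BV2 cells, 0 of the 32 members were called by edgeR, where 5.20% of 9321 tested genes were (3.69% higher and 1.51% lower). DESeq2 also called 0. The members' median log2 fold change was -0.08, against -0.01 over all genes. At an unadjusted p under 0.05 there were 6 members: Cln3, Grn, Laptm5, Lipa, Man2b1 and Tfeb. The groups, of only 2 libraries each, did not overlap for 9 members that were lower and 2 that were higher, where 24.9% and 17.1% of all genes did so (42.1% together). BV2 cells did respond to LPS, since 6 of 6 check genes (Tnf, Il1b, Il6, Nfkbia, Irg1 and Cxcl10) rose in them. All 6 also rose in primary microglia, and by more: the median log2 fold change was 6.93 in BV2 cells and 10.51 in primary microglia. The difference of the responses was called for 5 of the 6, all higher in primary microglia.

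Cln3 had the change nearest to a call among these. It was at 55.2 and 47.6 CPM without LPS and at 76.9 and 68.5 CPM with LPS, both higher than either without. The change was 0.53 ± 0.16 on the log2 scale (adjusted p = 0.0876). It was called without the second LPS replicate (0.63, adjusted p = 0.0119) and with the replicate number as a block (adjusted p = 0.0291). Laptm5 was at 130 and 135 CPM and at 108 and 77.5 CPM, both lower, with a change of -0.48 (adjusted p = 0.151). Without the first LPS replicate it was called (-0.73, adjusted p = 0.00128). Grn was at 43.0 and 64.8 CPM and at 38.9 and 29.6 CPM, with no overlap (-0.63, adjusted p = 0.176). It was called without the first replicate without LPS (-0.88, adjusted p = 0.0244) or the first with LPS (-0.81, adjusted p = 0.0352).

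For Manba, Neu1, Mcoln1, Naglu and Npc1, which fell in primary microglia, the BV2 values were as follows. Manba was at 94.8 and 95.2 CPM without LPS and at 109 and 103 CPM with LPS, slightly higher in both (0.19, 95% interval -0.10 to 0.49). Neu1 was at 124 and 119 CPM and at 141 and 121 CPM (0.14, -0.16 to 0.43). Mcoln1 was at 29.9 and 29.1 CPM and at 32.9 and 29.0 CPM, overlapping (0.10, -0.31 to 0.51). Naglu was at 17.8 and 17.5 CPM and at 25.8 and 13.8 CPM, so that the LPS replicates lay on either side of the group without LPS (0.18, -0.43 to 0.79). Npc1 was at 48.7 and 41.6 CPM and at 39.3 and 34.9 CPM (-0.25, -0.63 to 0.13). For these 5 genes the interval leaves out a fall of the size seen in primary microglia.

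Sgsh and Tfeb were too low in BV2 cells for a firm statement. Sgsh was at 9.67 and 4.96 CPM without LPS and at 5.71 and 1.97 CPM with LPS, on 7 to 31 counts, and the groups overlapped. Its change was -0.95 with an interval from -2.0 to 0.11 (adjusted p = 0.429). Without the first LPS replicate it was called (-1.83, adjusted p = 0.0445). Tfeb was at 6.24 and 6.94 CPM and at 4.36 and 2.54 CPM, both lower, on 9 to 21 counts (-0.92, -1.78 to -0.06, adjusted p = 0.305). Npc2 was at 318 and 272 CPM and at 313 and 286 CPM (0.05, -0.21 to 0.32), which leaves out the rise of the primary cells.

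The difference of the LPS responses, primary minus BV2, was tested itself in a fit of all 10 libraries. Of the 32 members, 7 differed, where 12.2% of 11626 tested genes did (3.54% lower and 8.65% higher). The response was lower in primary microglia for Sgsh, Manba, Naglu, Npc1, Neu1 and Mcoln1, and higher for Npc2. The members' median difference was -0.25, against 0.04 over all genes. Manba stood out by its certainty, with -1.57 ± 0.22 on the log2 scale (adjusted p = 3.95e-06). Npc2 was at 0.82 ± 0.18 (adjusted p = 0.00153) and Neu1 at -0.92 ± 0.21 (adjusted p = 0.00259). These 3 were called on leaving out any of the 10 libraries. Without the first primary LPS replicate 11 members differed, with Hexa, Gaa, Fuca1 and Lamp2 added.

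The other calls of a difference were each lost without a single BV2 library, and 4 members differed without the second BV2 replicate without LPS or without the first with LPS. Naglu was at -1.33 ± 0.28 (adjusted p = 0.00138), and at -0.82 without the first BV2 LPS replicate (adjusted p = 0.0737). Npc1 was at -0.96 ± 0.23 (adjusted p = 0.00468), with adjusted p = 0.0536 without the second BV2 replicate without LPS. Sgsh was at -1.86 ± 0.52 (adjusted p = 0.0146), and at -1.46 without that replicate (adjusted p = 0.0986) and -0.95 without the first BV2 LPS replicate (adjusted p = 0.508). Mcoln1 was at -0.84 ± 0.24 (adjusted p = 0.0175), and lost its call without either BV2 replicate without LPS (adjusted p = 0.0668 and 0.0776) or the first with LPS (adjusted p = 0.0803). Of all genes called for a difference, 70.9% were higher in primary microglia, or 60.3% when 5 abundant genes (Rn45s, Lars2, Mir6236, Rpph1 and Rmrp) were left out of the counts and 54.5% without the first primary LPS replicate. Tfeb was not called (-0.66, 95% interval -1.65 to 0.34), nor were the remaining members, so a call in primary microglia alone does not show that their responses differed.

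Without LPS, 25 of the 32 members were higher in primary microglia than in BV2 cells, 5 were lower, and Fuca1 and Lamp2 were not called. The background was high, with 74.1% of 11626 genes called, 41.5% higher and 32.5% lower, and the median log2 ratio was 0.83 over the members and 0.23 over all genes. Cell source and medium differ together in this comparison and cannot be told apart, and the labels name neither a strain for BV2 cells nor a library batch. Astrocyte and fibroblast markers are at or near 0 in BV2 cells and not in the primary cultures, and their part in these differences was not tested.

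The largest ratios were those of Ids and Man2b1. Ids was at 62.2, 69.1 and 65.8 CPM in primary microglia and at 7.17 and 5.29 CPM in BV2 cells, a log2 ratio of 3.38 ± 0.24 (adjusted p = 1.68e-12). Man2b1 was at 268, 277 and 328 CPM against 27.8 and 39.3 CPM, a log2 ratio of 3.12 ± 0.19 (adjusted p = 1.41e-13). Neither pair of groups came near to overlap. Naglu (2.44), Sgsh (2.40), Idua (2.25), Galc (2.22) and Grn (2.00) followed, all at an adjusted p of 2.20e-04 or less. All 4 sulfatases, all 3 cofactors and Tfeb (1.42 ± 0.29, adjusted p = 8.56e-05) were higher in primary microglia. Psap was at 1.34 ± 0.13, and the members' sum was 5760 ± 413 CPM in BV2 cells, of which Psap took 26.7%.

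The 5 members higher in BV2 cells were 4 glycosidases and Lipa. Manba was at 94.8 and 95.2 CPM there, against 42.0, 37.6 and 39.1 CPM in primary microglia (log2 ratio -1.26 ± 0.14, adjusted p = 1.19e-08). Gusb was at 704 and 602 CPM against 273, 251 and 350 CPM (-1.16 ± 0.14, adjusted p = 2.18e-08). The groups lay apart for both. Neu1 (-0.83), Lipa (-0.79) and Gla (-0.43) had smaller ratios. Per kilobase the BV2 order began with Psap, Lamp1, Gusb, Lipa and Lamp2, and ended with Sgsh, Idua and Ids, at 1.25 CPM per kb. The calls of Npc2 (0.28, adjusted p = 0.0498), Asah1, Cln3, Gla and Ppt1 were each lost on leaving out at least 1 library. Adjusted p-values rose to at most 0.398 for Npc2, without the second BV2 replicate without LPS.

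**Figure D4:**
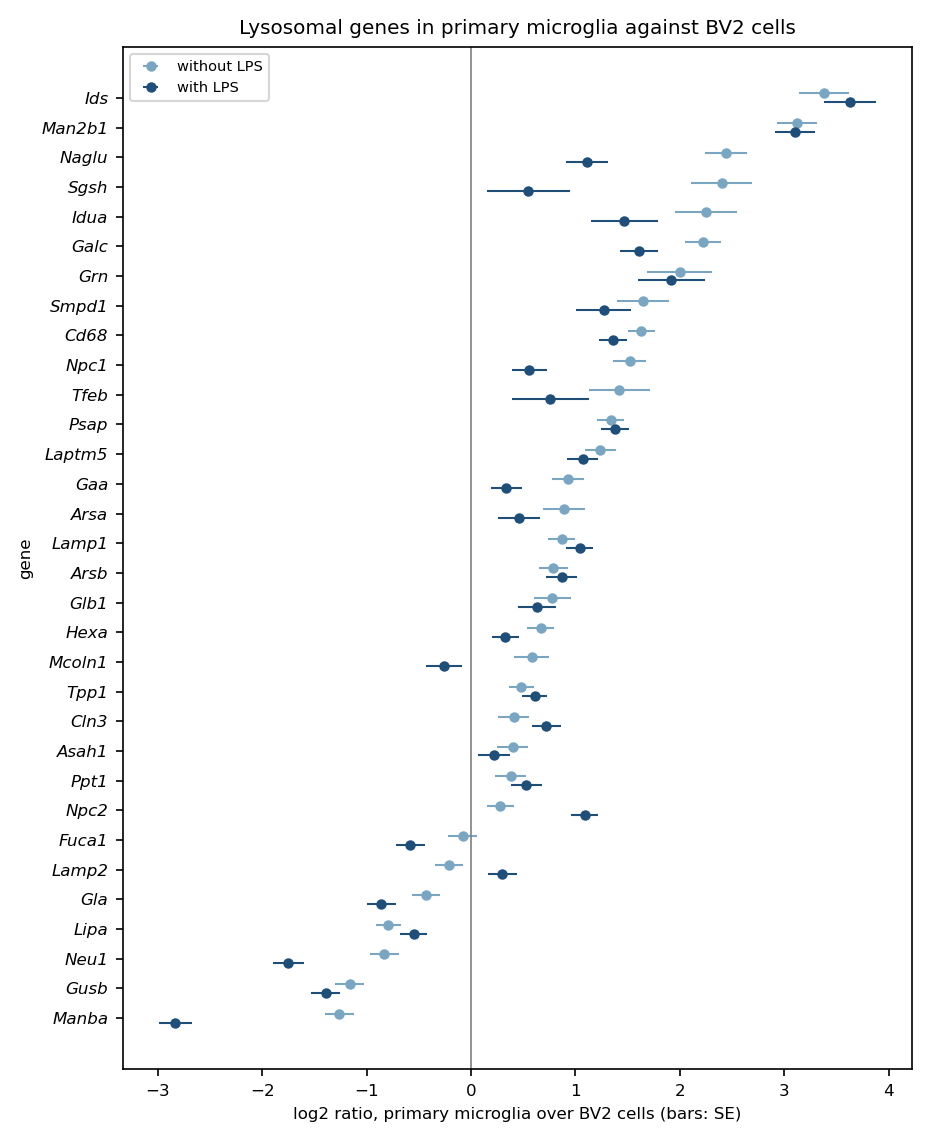
Log2 ratio of primary microglia over BV2 cells (x axis, bars SE) for each member, without LPS (light blue) and with LPS (dark blue), ordered by the ratio without LPS. Ids and Man2b1 keep ratios above 3 in both, Naglu, Sgsh, Npc1 and Manba shift left with LPS and Npc2 shifts right.

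With LPS, 21 members were higher in primary microglia and 6 lower, where 43.1% and 30.7% of all genes were (73.8% called in all). The members' median log2 ratio was 0.62 and that of all genes 0.29. This comparison and the one above contrast different groups, but both come from the fit of all 10 libraries and use its shared spread. Both also share libraries with the LPS comparisons. Ids (3.63) and Man2b1 (3.10) again had the largest ratios. Naglu was at 1.11 ± 0.20 and Npc1 at 0.56 ± 0.17 (adjusted p = 0.00416), and Npc1 was at 0.06 (adjusted p = 0.744) with the length trend removed. Sgsh was not called (0.55, 95% interval -0.27 to 1.37, adjusted p = 0.219), though it was without the first BV2 LPS replicate (1.44, adjusted p = 0.0174). Npc2 was at 1.09 ± 0.13, and Manba was lowest at -2.83 ± 0.16 (adjusted p = 3.66e-15). Fuca1 was lower in primary microglia (-0.58, adjusted p = 8.21e-04), along with Neu1 (-1.75), Gusb (-1.39), Gla (-0.86) and Lipa (-0.55). The calls of Gaa, Arsa and Hexa (0.34, 0.46 and 0.33) were lost on leaving out several single libraries.

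Members with and without CACGTG in their promoter window both fell more often than they rose. Over all tested genes 17.8% fell and 21.4% rose in primary microglia, with a median log2 fold change of -0.03. Of the 9 with it, 6 fell, 1 rose and 2 were not called in primary microglia (median log2 fold change -0.55). Of the 21 without it, 11 fell, 2 rose and 8 were not called (median -0.41). Among the stretches printed above, Lamp1, with 4 copies, was not called, and Cln3, with a pair of copies at 1 of its 2 RefSeq starts, rose. Any part of the element in these responses was not tested. The core GAGGAAGT of the site for PU.1, a macrophage transcription factor, was searched on both strands. It was in the windows of Gla and Gusb, or 6.67% of the members with a window, and in 3.69% of all genes with a window.

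Other genes of the lysosomal system rose or fell in primary microglia, where 21.4% of all tested genes rose and 17.8% fell. The counts of each list in these cells, here and in the following paragraphs, are to be read against those shares. Among other hydrolases and cofactors 4 of 23 rose and 7 fell (median log2 fold change -0.17). Acp5, a tartrate-resistant acid phosphatase, rose from 4.11 ± 1.5 to 46.9 ± 6.32 CPM. Hyal1, a hyaluronidase, and Pla2g15, a lysosomal phospholipase, fell by 2.28 ± 0.33 and 1.89 ± 0.15. Among other membrane proteins and transporters 4 of 28 rose and 12 fell (median -0.23). Slc15a3, a peptide and histidine transporter, rose from 130 ± 6.31 to 998 ± 25.8 CPM. Slc17a5, the sialic acid exporter, fell from 45.4 ± 3.68 to 7.37 ± 1.30 CPM. Tpcn1, a 2-pore channel, fell by 2.27 ± 0.30, and the chloride transporter gene Clcn7 rose by 0.89 ± 0.13.

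Subunits of the V-ATPase, the proton pump that acidifies the lysosome, were evenly split, with 5 of 18 higher and 5 lower (median 0.16). Tcirg1 rose from 197 ± 20.0 to 532 ± 47.0 CPM and Atp6v1e1 from 117 ± 10.7 to 311 ± 19.7 CPM. Atp6v0d2, a subunit enriched in macrophages and osteoclasts, fell from 101 ± 4.90 to 26.1 ± 2.27 CPM. Atp6v0a1 fell by 0.65 ± 0.12. Of 18 genes of mannose 6-phosphate tagging and sorting, which carry hydrolases to the lysosome, 3 rose and 6 fell (median -0.10). The receptor gene M6pr rose from 214 ± 27.6 to 441 ± 39.5 CPM and the adaptor subunit Ap3b1 by 0.90 ± 0.12, while the sorting receptor Sort1 and the adaptor Gga2 fell by 1.15 ± 0.12 and 1.18 ± 0.24.

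Tfec and Mitf, relatives of Tfeb, rose. Of 22 genes for MiT/TFE factors, mTORC1 docking and their regulators, 4 rose and 6 fell (median -0.15). Tfec was at 9.95 ± 3.75 CPM and reached 52.7 ± 2.57 CPM with LPS, a rise by 2.39 ± 0.21 on the log2 scale (adjusted p = 2.64e-08). Mitf went from 46.6 ± 9.16 to 137 ± 13 CPM (1.55 ± 0.15, adjusted p = 5.25e-08). Tfe3 was at 0.34 ± 0.15 (adjusted p = 0.0704). Fnip2, a folliculin partner, and Rragd, a Rag GTPase of mTORC1 docking, fell by 2.26 ± 0.12 and 2.00 ± 0.15. Of 25 autophagy genes 4 rose and 10 fell (median -0.38), with the receptor gene Sqstm1 up from 445 ± 18.2 to 1210 ± 129 CPM, Optn up by 0.61 ± 0.16, and Ulk1 and Uvrag down (-1.96 ± 0.24 and -1.33 ± 0.24). A list of 14 tested genes held subunits of the HOPS and CORVET tethers, which serve fusion with lysosomes. It also held Rab7, Rab5a, Plekhm1, Snapin, Arl8a and Arl8b. Of the 14, 1 rose (Rab5a, 0.48 ± 0.16) and 5 fell, led by Plekhm1 (-2.11 ± 0.14) and Vps18 (-1.22 ± 0.15).

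In BV2 cells the calls in these lists are to be read against 5.20% of all genes called: 2 of 19 other hydrolases rose, among them Acp2 (0.58 ± 0.14), and 1 of 27 other membrane proteins rose and 1 fell (Slc15a3, 1.30 ± 0.13, and Tpcn1, -0.96 ± 0.22). Tfec rose from 14.8 ± 0.604 to 41.1 ± 2.07 CPM (1.51 ± 0.20, adjusted p = 4.78e-04), the single call of 20 in its list, and Sqstm1 from 110 ± 4.36 to 230 ± 25.2 CPM (1.10 ± 0.13), the single call among 23 autophagy genes. Plekhm1 fell by 1.03 ± 0.17, the single call of 14 in the list that holds the tethers and Rab7. No V-ATPase subunit of 17 tested and no sorting gene of 16 was called. At an unadjusted p under 0.05 there were 2 and 1 of these. Mitf was at 0.44 ± 0.22 in BV2 cells (adjusted p = 0.419), and its response differed between the cells (1.16 ± 0.26, adjusted p = 0.00262). For Tfec the difference was 0.93 ± 0.32 (adjusted p = 0.0531).

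**Figure D5:**
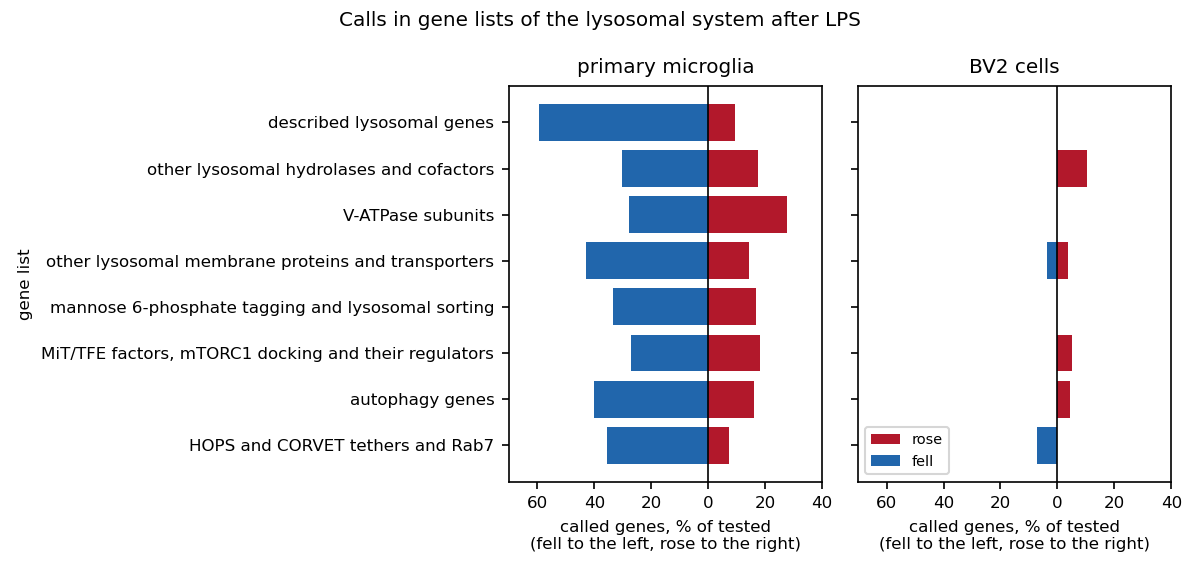
Share of the tested genes of each list that fell (left, blue) or rose (right, red) with LPS at an adjusted p under 0.05, in primary microglia and in BV2 cells. The 32 genes described (top bar) have the longest bar to the left in primary microglia and none in BV2 cells, while the V-ATPase bar is the same length on both sides.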

How the data were processed

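Libraries were made with a directional kit after ribosomal RNA removal and read as pairs, per the labels' protocols. The authors deposited whole-number read counts per gene symbol for each library. CASAVA 1.8.2, Trimmomatic 0.33, STAR 2.5.1, the mm10 build and DESeq2 (no version) are named, per the submitters' processing notes. No source used here gives the annotation. Counts of the reverse strand were used; the opposite strand held 0.682% to 2.21% of reads assigned to genes with a strand. Entries without a gene (70.4% to 79.5% of reads) were left out.

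The test was that of edgeR 4.0.16 (R 4.3.3): filterByExpr (minimum count 10, minimum total 15), TMM normalization, the robust quasi-likelihood F test, Benjamini-Hochberg adjustment over all genes tested, and a call at an adjusted p under 0.05. LPS comparisons were fitted within each cell type (6 and 4 libraries), and the others over all 10 libraries. CPM use TMM-scaled library sizes and are given per replicate or as mean ± SD. Fold changes are given ± SE or with a 95% interval. For a gene with no read, up to 3 counts (0.845 to 1.23 CPM) are compatible with chance sampling, a limit that covers counting error only. DESeq2 1.42.0, other scalings and filters, and leaving out each library were tried as alternatives. The scripts were tested on simulated data.

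The members and gene lists were chosen with earlier results of these data known, and the grouping by substrate and the choice of promoters shown were made after the values were seen. All members are named, those with the 12 largest called changes in each LPS comparison get every library's value, and of each other list the 2 largest rises and falls among called genes are named, except for results that are not reported here. Hgsnat, Tfe3 and the BV2 values of Mitf fall outside that rule and were chosen after their values were seen. Lengths are those of the longest GENCODE M21 transcript matched to RefSeq, or of the longest transcript where none was matched. This understates the level per kilobase of genes that mostly use a shorter transcript. Promoters are those of RefSeq on GRCm38.p6.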

Additional observations from a re-analysis of the deposited data

Results flagged for a closer look

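The LPS response differed between primary microglia and BV2 cells, by the test of the difference itself, for 7 of the 32 genes, where 12.2% of all tested genes differed. As log2 differences, primary minus BV2, the values were -1.86 for Sgsh, -1.57 for Manba, -1.33 for Naglu, -0.96 for Npc1, -0.92 for Neu1, -0.84 for Mcoln1 and 0.82 for Npc2. The calls of Sgsh, Naglu, Npc1 and Mcoln1 were each lost without a single BV2 library. Without the first BV2 LPS replicate Sgsh was at -0.95 and Naglu at -0.82. The cell source and medium differ together between the cells and cannot be told apart. No cause of these differences was tested.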

How the results depend on the processing

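Across 1216 values of single members under other settings, 1170 kept their direction and side of the threshold, 28 lost a call, 18 gained one and 0 reversed; among 1280 values with a library left out, 53 lost a call, 18 gained one and 0 reversed. A further 69 values called in neither setting changed sign. The count of members called in primary microglia was 19 to 24 over the settings and 18 to 23 on leaving out a library. In BV2 cells it was 2 with no low-count filter, 1 with the replicate block and 0 to 3 on leaving out a library. For the difference of responses it was 4 to 11 on leaving out a library, and for that comparison the median of all genes moved by -0.10 without the 5 abundant genes and by -0.11 without the third primary replicate without LPS. Over all genes, LPS called 485 in BV2 cells, but 318 by DESeq2 and 800 without the first LPS replicate.

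Deviations from the group means of primary libraries with equal replicate numbers correlated at 0.181, -0.077 and 0.194, so replicate numbers were not used as pairs. With the replicate number as a block, 23 members were called in primary microglia, 7 for the difference of responses, and 29 and 25 between the cells without and with LPS. Low counts limit Sgsh, Tfeb, Idua and Ids in BV2 cells, where replicates of Sgsh varied by 45.6% and 68.8%.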
